A study of Mus musculus with 6 samples.

Results

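The collagen genes of the mouse were examined in a list of DNA methylation peaks from cultured chondrocytes, the cells that build cartilage. All 34 genes with a numbered collagen chain symbol that lie on sequence covered by the list were included, of 15771 protein-coding genes there, and a further 10 collagen genes of the gene table lie outside it and were not analysed here. A peak was counted for a gene when its midpoint fell in the gene body or within 1 kb of either end. The list comes from a study of 6 cultures taken from knee articular cartilage of mice 3 to 5 days after birth: 3 control cultures of genotype Dnmt1 flox, and 3 conditional knockout (cKO) cultures of genotype Prx1-Cre;Dnmt1 flox/flox, so that floxed Dnmt1 is common to both. Dnmt1 is the enzyme that copies DNA methylation onto newly made strands, and Prx1-Cre removes floxed sequence in limb mesenchyme, from which chondrocytes of the knee arise. DNA was sheared to about 300 bp, and in MBD-seq the fragments that bind MBD2, a protein with affinity for methylated CpG, are kept and sequenced. The peaks had been called on 3 merged datasets whose group is not given in the sources used here. The deposited list is titled as regions of Dnmt1-mediated methylation, but how the title relates to the groups is not given either, so it is treated as a list of methylated regions. Thus no peak has a value per culture, no difference between control and cKO could be computed, and no spread between cultures accompanies any value below. The labelled cell type could not be checked, because a methylation list holds no marker expression. The weakest peak of the list had a −log10 q of 20.004, so a gene without a peak is one where no region passed that level, which does not measure the absence of methylation.

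Collagens are trimers of chains that wind into a helix with glycine at regular steps along each chain. Fibril-forming collagens (types I, II, III, V, XI, XXIV and XXVII) make the ropes of connective tissue. FACIT collagens (fibril-associated, such as types IX, XIV and XVI) sit on the surface of those ropes, and other classes form networks, beaded filaments, basement membranes or membrane-spanning proteins. Cartilage is built on fibrils of type II collagen, with type XI inside and type IX on the surface, and type X is the network collagen of hypertrophic chondrocytes. The 7 genes Col2a1, Col9a1, Col9a2, Col9a3, Col10a1, Col11a1 and Col11a2 are called cartilage collagens here. MBD2 binds methylated CpG, a C followed by a G on the same strand, so the letters at a gene's start show how many positions the assay could see there.

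The promoter windows of 8 members are shown because they span the range of CpG number at collagen starts, in cartilage collagens and in collagens with many or no peaks, while none of them had a peak there. Each is the 250 bases before an annotated start from RefSeq (GRCm38.p6), 5′ to 3′ on the gene's own strand, in lower case with every CpG in capitals. The windows lie at chr1:24177360-24177609 (plus strand) for the first of 2 starts of Col9a1, chr4:121039316-121039565 (plus) for Col9a2, chr10:34389731-34389980 (plus) for Col10a1, chr3:114030290-114030539 (plus) for Col11a1, chr17:34038888-34039137 (plus) for Col11a2, chr1:45311288-45311537 (plus) for Col3a1, chr2:27886175-27886424 (plus) for Col5a1 and chr1:90843972-90844221 (minus) for Col6a3.
Col9a1: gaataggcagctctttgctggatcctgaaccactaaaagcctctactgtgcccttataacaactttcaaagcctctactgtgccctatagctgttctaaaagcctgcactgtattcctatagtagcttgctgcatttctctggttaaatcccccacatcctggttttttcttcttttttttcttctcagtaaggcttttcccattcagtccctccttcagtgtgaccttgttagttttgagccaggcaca
Col9a2: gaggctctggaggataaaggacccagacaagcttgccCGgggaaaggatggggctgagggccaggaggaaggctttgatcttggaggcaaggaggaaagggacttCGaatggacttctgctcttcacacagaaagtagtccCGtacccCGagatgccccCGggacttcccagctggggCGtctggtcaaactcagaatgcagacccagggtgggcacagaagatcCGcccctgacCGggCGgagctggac
Col10a1: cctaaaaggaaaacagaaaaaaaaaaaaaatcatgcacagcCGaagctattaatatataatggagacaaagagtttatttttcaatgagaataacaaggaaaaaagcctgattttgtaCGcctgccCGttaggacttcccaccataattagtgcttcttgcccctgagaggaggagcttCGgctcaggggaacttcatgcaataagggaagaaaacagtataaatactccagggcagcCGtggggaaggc
Col11a1: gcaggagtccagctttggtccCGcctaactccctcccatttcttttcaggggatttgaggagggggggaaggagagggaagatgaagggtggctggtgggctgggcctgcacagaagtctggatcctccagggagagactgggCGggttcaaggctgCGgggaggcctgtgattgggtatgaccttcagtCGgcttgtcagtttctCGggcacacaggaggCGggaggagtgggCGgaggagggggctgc
Col11a2: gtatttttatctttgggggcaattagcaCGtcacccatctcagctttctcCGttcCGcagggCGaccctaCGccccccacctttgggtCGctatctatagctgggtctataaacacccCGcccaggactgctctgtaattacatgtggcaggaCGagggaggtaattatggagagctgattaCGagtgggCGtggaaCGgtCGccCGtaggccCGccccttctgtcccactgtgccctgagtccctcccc
Col3a1: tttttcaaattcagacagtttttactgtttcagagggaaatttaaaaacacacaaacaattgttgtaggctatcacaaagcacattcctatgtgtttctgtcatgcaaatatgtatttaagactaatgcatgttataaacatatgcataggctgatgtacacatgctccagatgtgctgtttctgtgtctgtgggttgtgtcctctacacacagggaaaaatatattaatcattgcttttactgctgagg
Col5a1: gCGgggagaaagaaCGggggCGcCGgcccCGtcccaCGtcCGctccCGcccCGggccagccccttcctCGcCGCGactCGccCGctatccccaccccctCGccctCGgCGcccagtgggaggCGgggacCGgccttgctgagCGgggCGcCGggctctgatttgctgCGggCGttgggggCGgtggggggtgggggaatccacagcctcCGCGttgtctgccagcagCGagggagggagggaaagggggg
Col6a3: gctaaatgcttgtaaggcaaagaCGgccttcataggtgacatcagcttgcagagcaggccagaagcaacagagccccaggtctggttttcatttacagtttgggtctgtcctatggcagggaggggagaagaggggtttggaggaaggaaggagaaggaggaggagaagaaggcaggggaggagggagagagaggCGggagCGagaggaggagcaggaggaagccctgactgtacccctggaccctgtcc

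The motif CG, which reads the same on both strands, was absent from the windows of Col9a1 and Col3a1. It occurred 3 times at Col6a3, 5 times at Col10a1, 7 times at Col11a1, 9 times at Col9a2, 14 times at Col11a2 and 28 times at Col5a1. Of 15401 such windows of protein-coding genes, 94.4% held at least 1 CG, as did 25 of the 29 windows of collagen genes, with medians of 11 and 9. The second start of Col9a1 and the start of Col28a1 also had none. At least 15 CG were found in 7 of the 29 collagen windows and in 39.3% of all windows. Promoter entries were found for 26 of the 34 genes; Col1a1, Col2a1, Col4a3, Col5a2, Col9a3, Col14a1, Col22a1 and Col26a1 had none.

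No collagen start in the promoter table carried a peak. Of the 26 genes with an annotated start, 0 had a peak midpoint within 1 kb of it, against 7.81% of the 12547 protein-coding genes with such an entry. At that share only a few of 26 genes would have one. Within 2 kb, 0 of the 26 genes had one, against 15.5%. Col2a1, whose start is not among these, had a peak within 1 kb of both ends of its gene model, so that whichever end is its start has one. In the promoter table the nearest peaks were 2.15 kb from the start of Col19a1, 2.51 kb from that of Col9a2, 2.54 kb from that of Col11a2 and 2.57 kb from that of Col6a1. The farthest were at Col23a1, encoding a membrane-spanning collagen (63.7 kb), and Col3a1, encoding the chain of type III collagen (58.6 kb). The median distance over the 26 genes was 10.2 kb, against 7.89 kb over all genes with an entry. Among all windows, a peak within 1 kb was found for 8.75% of those with fewer than 5 CG and for 2.60% of those with at least 15.

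Across gene bodies and 1 kb flanks, 153 peaks were assigned to 28 of the 34 collagen genes (82.4%), against 66.4% of all protein-coding genes. The collagen genes are long, with a median of 109.9 kb against 18.6 kb, so the share was set beside that of genes within 25% of each member's length: 29.7 of the 34 would hold a peak at those genes' rates. The 6 collagen genes without a peak were Col1a2, Col3a1, Col9a1, Col9a2, Col9a3 and Col11a1. Together the collagens had 3.65 peaks per 100 kb, below the 5.61 of all protein-coding genes, and the median per gene was 3.31 against 4.34. Summing the mean of similarly long genes over the members gave 210.8 peaks where 153 were found. In all, 22 members had fewer peaks than that mean and 12 had more. These means mostly lay above the medians of the same genes. Against the median, 19 members had fewer peaks, 4 as many and 11 more. The spread between members was wide, with densities from 0 to 21.3. Of the 34 genes 8 exceeded 10 peaks per 100 kb, a smaller share than the 30.9% of protein-coding genes. Of those 8, 5 were shorter than 30 kb, where few peaks give a high density, and Col10a1 passed with 1 peak. Over the 34 genes, Spearman's rho of length with peak number was 0.557, against 0.643 over all protein-coding genes; genes that overlap or adjoin share sequence, and no test was made.

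**Figure D1:**
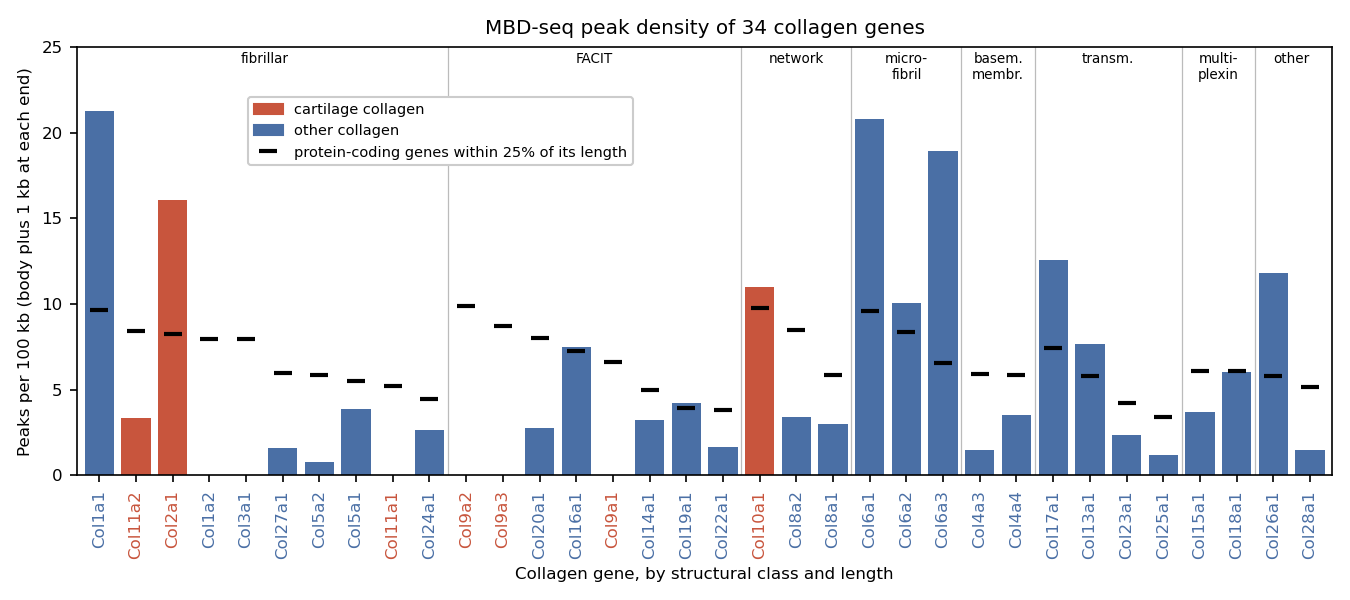
Peaks per 100 kb (body plus 1 kb at each end) for the 34 collagen genes, ordered by structural class and then by length; red bars and names are the 7 cartilage collagens, blue the other 27, and each black dash is the pooled density of protein-coding genes within 25% of that gene's length. Bars run from 0 in 6 genes to 21.3 in Col1a1, and the 3 microfibril genes all stand above their dash.

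The cartilage collagens held 7 peaks in 369 kb of gene body, of which 5 were in Col2a1. Only 3 of the 7 genes had a peak, where 5.34 would at the rates of similarly long genes, and their pooled density was 1.83 per 100 kb against 3.84 for the other 27 collagens. The 7 peaks compare with a sum of 24.4 from the means of similarly long genes. That density depends on 2 genes. Without Col11a1 the density was 3.66 per 100 kb, close to the other collagens, and without Col2a1 it was 0.568.

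Col11a1 (chr3:114030479-114220756) encodes a chain of the type XI collagen that nucleates cartilage fibrils, and its 190.3 kb held 0 peaks. Among 619 protein-coding genes within 25% of its length, 12 (1.94%) had none, and the mean was 9.62 peaks. The gene lay inside a stretch of 257.9 kb between neighbouring peaks, where the median stretch of the list was 9.03 kb and 99.7% were shorter. A gene of 190.3 kb without a peak can only lie in such a long stretch, so this rank is not a separate result. The nearest peak was 9.71 kb before the gene, and the sequence from 1 to 100 kb on either side held 2. The surrounding sequence was therefore poor in peaks as well.

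The 3 genes of type IX collagen, whose trimers coat the type II fibril, had no peak either. Col9a1 (chr1:24177589-24252738) is 75.2 kb long, and 10.1% of 1426 similarly long genes had no peak. Col9a2 (chr4:121039566-121055325) spans 15.8 kb, a length at which 29.8% of genes had none. Col9a3 (chr2:180598102-180622192) spans 24.1 kb, where 26.7% had none. For the 2 shorter genes an empty gene was thus common among genes of their size. Their neighbourhoods were not empty: the sequence from 1 to 100 kb on either side held 8 peaks at Col9a1, 10 at Col9a2 and 11 at Col9a3.

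Col2a1 (chr15:97975602-98004724), the gene of the main cartilage collagen, was the cartilage member with most peaks, 5 in 29.1 kb or 16.1 per 100 kb. Similarly long genes had a mean of 2.50, and 12.1% of them had more than 5. The number in Col2a1 depends on the counting: 3 remained after merging within 500 bp, and 3 reached a −log10 q of at least 50. No mean of similarly long genes is given for these settings. Of the 5, 4 had midpoints within 2.25 kb of the lower-coordinate end, followed by 26.7 kb without a peak, and the fifth was at the opposite end. The peak nearest the lower end, chr15:97975715-97976159, was the broadest at 445 bp, with a fold of 7.60 and a pileup of 192 reads. The next 3 followed at chr15:97976687-97976862 (fold 8.24), chr15:97977229-97977341 (9.50) and chr15:97977748-97977965 (8.49). The last, chr15:98004483-98004583, was 101 bp wide with a fold of 8.19 and 62 reads. All 5 folds lay below 13.7, the median of peaks in or near protein-coding genes. The sequence from 1 to 100 kb on either side of Col2a1 was also rich in peaks, with 22, or 11.1 per 100 kb.

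The other 2 cartilage members had 1 peak each. In Col11a2 (chr17:34038919-34066684), which encodes another type XI chain, it lay at chr17:34064010-34064319, 25.2 kb from the lower-coordinate end of the gene, which is its start, with a fold of 12.6 and 92 reads. In Col10a1 (chr10:34389981-34397085), the hypertrophic collagen gene and the shortest member at 7.11 kb, it lay at chr10:34395737-34396143, 5.96 kb from the start, with a fold of 13.3 and 97 reads. That peak also lies within Nt5dc1, the only collagen peak inside another protein-coding gene. Of similarly long genes 53.4% had more peaks than Col11a2 and 23.4% more than Col10a1. The sequence from 1 to 100 kb on either side held 26 peaks at Col11a2, 13.1 per 100 kb against 3.36 in the gene. At Col10a1 it held 3, or 1.515 per 100 kb against 10.98 in the gene.

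**Figure D2:**
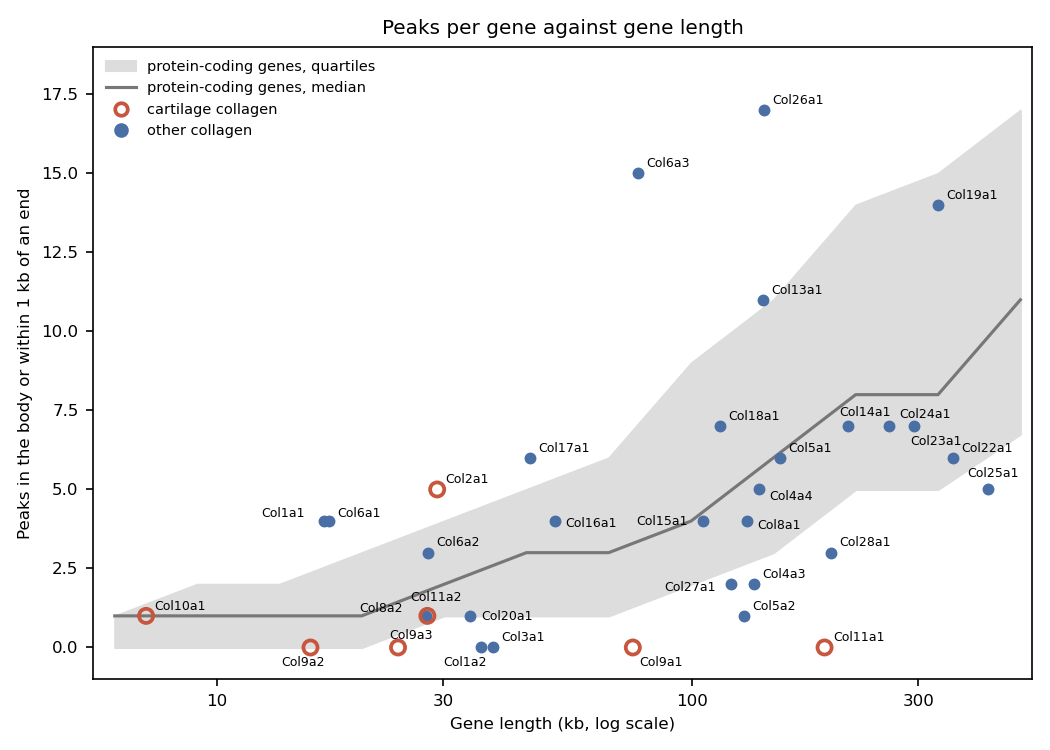
Peaks per gene (body or within 1 kb of an end) against gene length on a log scale; open red circles are the cartilage collagens, blue points the other collagens, and the line and band give the median and quartiles of protein-coding genes in 12 length bins from 5 to 600 kb. Col11a1 and Col9a1 sit at 0 below the band, and Col6a3 and Col26a1 stand above it.

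The remaining fibrillar genes divided between 1 gene dense in peaks and several with few. Col1a1 (chr11:94936224-94953042), encoding the main chain of type I collagen of bone and skin, had 4 peaks in 16.8 kb, 21.3 per 100 kb and the highest density of the family. Its folds were 9.90 at chr11:94943051-94943396, 7.60 at chr11:94945429-94945626, 14.6 at chr11:94950173-94950726 and 16.2 at chr11:94950815-94951419. Of 2121 similarly long genes, 9.62% had more peaks. After merging within 500 bp, Col6a1 (20.8 per 100 kb before merging) kept 4 peaks and Col1a1 3, so the first rank of Col1a1 depends on counting close peaks apart. Its partner chain gene Col1a2 (chr6:4505618-4541543) had none in 35.9 kb, where 19.9% of genes of that size had none. Col3a1 (chr1:45311538-45349706) had none in 38.2 kb, against 18.8%. The long genes Col5a2, for a chain of type V collagen (1 peak in 129 kb), and Col27a1 (2 peaks in 121 kb) were also sparse, while Col5a1 had 6 peaks in 153.1 kb, the median of similarly long genes. Col24a1 had 7 in 259.5 kb, where that median was 8. Over the 7 fibrillar genes outside the cartilage group, 20 peaks were found where similarly long genes summed to 41.5, and 6 of the 7 fell below the mean of their length. Against the median of their length, 5 were below, 1 was equal and 1 above.

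The 5 FACIT genes outside the cartilage group each had a peak, where 4.615 would at the rates of similarly long genes. Col19a1, whose product is found in muscle and basement membrane zones, had 14 in 330.2 kb. Col14a1 had 7 in 213.2 kb, Col22a1 6 in 355.2 kb, Col16a1 4 in 51.5 kb and Col20a1 1 in 34.2 kb. Their 32 peaks compare with a sum of 42.25 from similarly long genes. Col22a1, a collagen of tissue junctions, held the broadest collagen peak, 1276 bp with a fold of 7.80, and 1 of the highest, a fold of 46.5 at chr15:71822602-71823171. The other 4 had folds of 36.4, 10.2, 26.0 and 19.1.

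The type VI collagen genes, whose chains form the beaded microfibrils around cells including chondrocytes, were the class with most peaks for its length. Col6a1, Col6a2 and Col6a3 together held 22 peaks in 122.3 kb, or 17.2 per 100 kb, against a sum of 9.30 from similarly long genes, and all 3 exceeded that mean. Col6a3 (chr1:90766860-90844001) had 15 in 77.1 kb, and 4.17% of 1390 similarly long genes had more. Its folds ran from 6.51 to 46.7 with a median of 19.4, its widths from 103 to 688 bp and its −log10 q from 23.4 to 446.9, and the peak at chr1:90813280-90813967 had the highest fold of all collagen peaks. The peaks were spread along the body, with a longest free stretch of 10.6 kb and 8 peaks in the fullest 20 kb. The sequence from 1 to 100 kb on either side held 2 peaks, a density of 1.01 per 100 kb against 18.95 in the gene. Over all 34 members, 15 were denser than their own flanks of this kind and 19 less dense.

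Col6a1 (chr10:76708792-76726044) had 4 peaks in 17.3 kb, at distances of 2.57, 7.67, 14.6 and 16.2 kb from its start and with folds of 44.4, 22.8, 29.8 and 17.8. Col6a2 (chr10:76595756-76623630) had 3 in 27.9 kb, with folds of 9.95, 30.2 and 8.38. Of similarly long genes 9.68% had more peaks than Col6a1 and 26.0% more than Col6a2. In neither gene did a stretch without a peak exceed 11 kb. The sequence from 1 to 100 kb on either side held 19 peaks at Col6a2, 9.60 per 100 kb against 10.04 in the gene. At Col6a1 it held 11 peaks, 5.56 per 100 kb against 20.8 in the gene.

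Among the other classes, Col26a1 stood highest in number, with 17 peaks in 141.6 kb, and 10.1% of similarly long genes had more. The membrane-spanning collagens ranged from Col17a1, of the epidermal anchoring complex (6 in 45.7 kb, 12.6 per 100 kb), and Col13a1, of the neuromuscular junction (11 in 141 kb), to Col23a1 (7 in 294.2 kb) and Col25a1 (5 in 419.5 kb, the longest member). Col15a1 and Col18a1, whose products carry glycosaminoglycan chains and release antiangiogenic fragments such as endostatin, had 4 in 105.5 kb and 7 in 114.4 kb. The folds of the Col15a1 peaks were 43.7, 25.9, 9.90 and 14.2. The basement membrane genes Col4a3 and Col4a4 had 2 and 5 peaks, both below the median of 6 of similarly long genes. Of the network genes Col8a1 had 4 and Col8a2 1, and Col28a1, whose product carries von Willebrand factor A domains, had 3 in 196.6 kb.

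**Figure D3:**
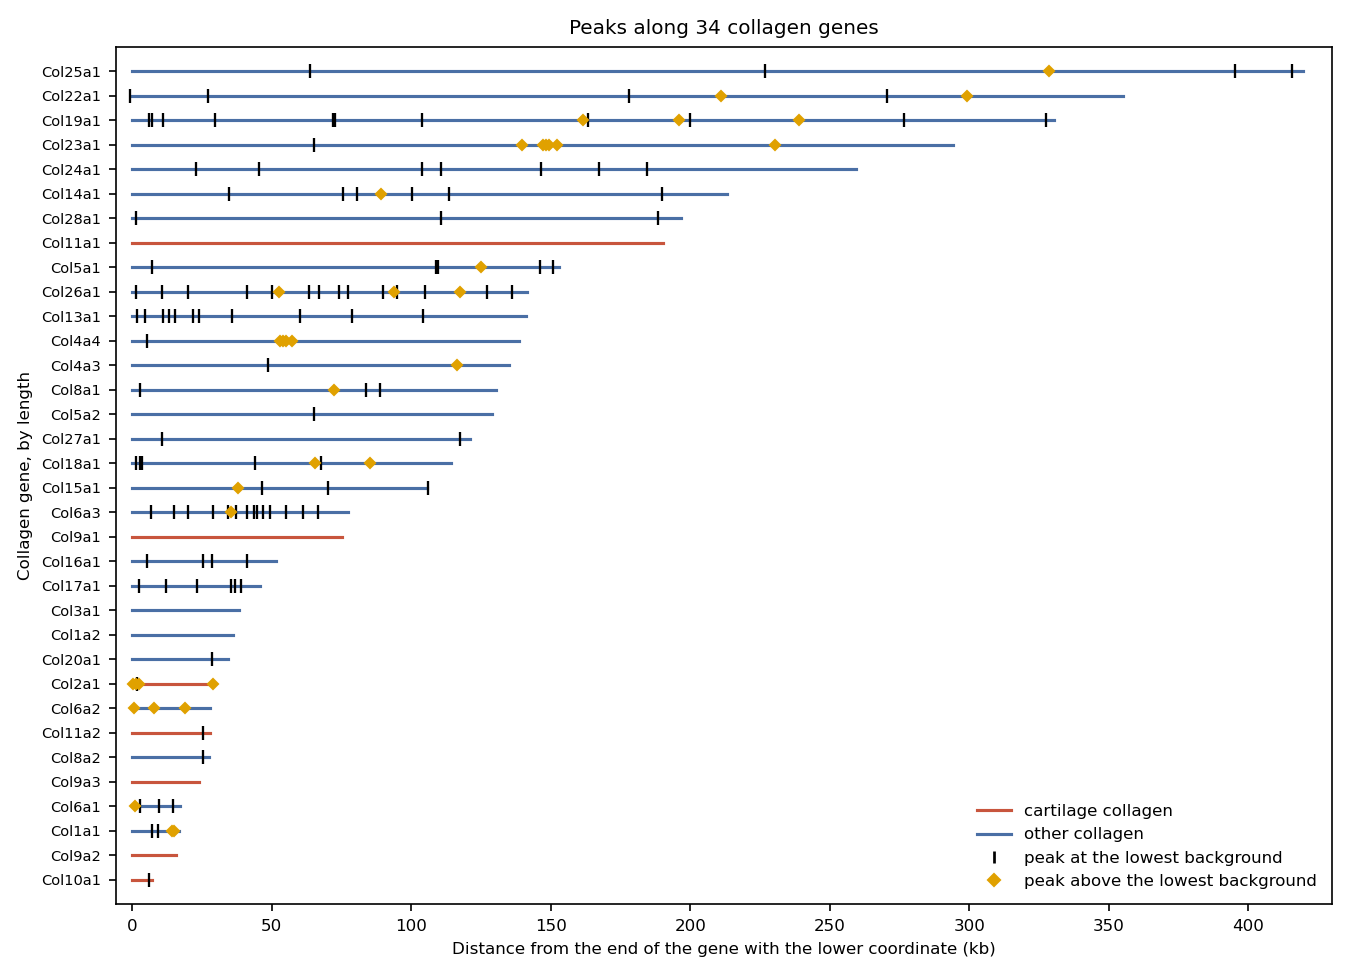
Peaks along the 34 collagen genes, drawn to scale from the end with the lower coordinate and sorted by length; black ticks are peaks at the lowest background of the list and yellow diamonds those above it. Col2a1 shows 4 peaks next to the lower end, Col6a3 15 along its body, and Col11a1 none over 190.3 kb.

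Collagen genes that lie next to each other could hold different numbers of peaks. Col9a1 and Col19a1 are 4.94 kb apart, with 0 and 14 peaks. Col3a1 and Col5a2, 24.6 kb apart, had 0 and 1, with none between them, and Col3a1 lay in a stretch of 186.5 kb free of peaks. Col4a3 and Col4a4, whose models overlap by 114 bp, had 2 and 5, and the first peak of Col4a3 lay 48.8 kb in from the overlapping end. Col6a1 and Col6a2 had 4 and 3, with 2 more between them over 85.2 kb. No peak was counted for 2 collagen genes.

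Only 4 collagen genes (Col2a1, Col6a2, Col15a1 and Col22a1) had a peak within 1 kb of an end, 4 of 34 against 21.8% of protein-coding genes. Besides the 2 of Col2a1, they were chr10:76596131-76596969 at the far end of Col6a2 (794 bp from it, fold 9.95), chr4:47313379-47313756 beyond the far end of Col15a1 (400 bp, fold 14.2) and chr15:71794627-71795183 next to the lower-coordinate end of Col22a1 (890 bp, fold 36.4). The last of these also lies in the gene model Gm2999. The next nearest was 1.04 kb inside the far end of Col6a1. Along the 21 genes with a peak and a known start, 14.5% of the 110 peaks in the body lay in the first 25% of the gene's length and 34.5% in the last 25%, against 16.4% and 35.7% over all protein-coding genes with a known start, so the tilt towards the far end was near that of genes in general.

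The deposited fold of collagen peaks ran from 3.26 (Col14a1) to 46.7 (Col6a3), with a median of 11.9 and quartiles of 8.41 and 22.8. Peaks of protein-coding genes had a median of 13.7 with quartiles of 8.82 and 22.6. The cartilage members' 7 peaks lay between 7.60 and 13.3, all at or below that median, while those of the microfibril genes had a median of 21.0. The median width was 396 bp against 392 bp.

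A background of 6.37 reads, recovered from each peak's fold and p-value, was the lowest in the list, where MACS2 uses none below its genome-wide level; a higher one is the local level the caller used at that place. Of the 153 collagen peaks 37 (24.2%) lay above it, in 17 genes, against 14.85% of peaks of protein-coding genes. Peaks of 1 gene can share a local level, so the 37 are not independent and no interval is given. Of the 37, 17 were in 4 members: 4 of 5 peaks of Col2a1, 4 of 5 of Col4a4, 3 of 3 of Col6a2 and 6 of 7 of Col23a1. In contrast, all 11 peaks of Col13a1, all 7 of Col24a1 and all 6 of Col17a1 were at the lowest background, and 14 of 15 were in Col6a3. The highest backgrounds were 124.3 reads under a Col14a1 peak with a pileup of 408 reads, and 122.2 reads under a Col4a4 peak with 475, whose folds of 3.26 and 3.86 were among the 3 lowest of the family. The other was a Col19a1 peak of fold 3.85. Which reads gave the local level is not given in the sources used here, and its part in these folds was not tested. Counting only peaks at the lowest background left 3 in the cartilage members, 1 each in Col2a1, Col10a1 and Col11a2, a density of 0.783 per 100 kb against 2.97 for the other collagens.

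**Figure D4:**
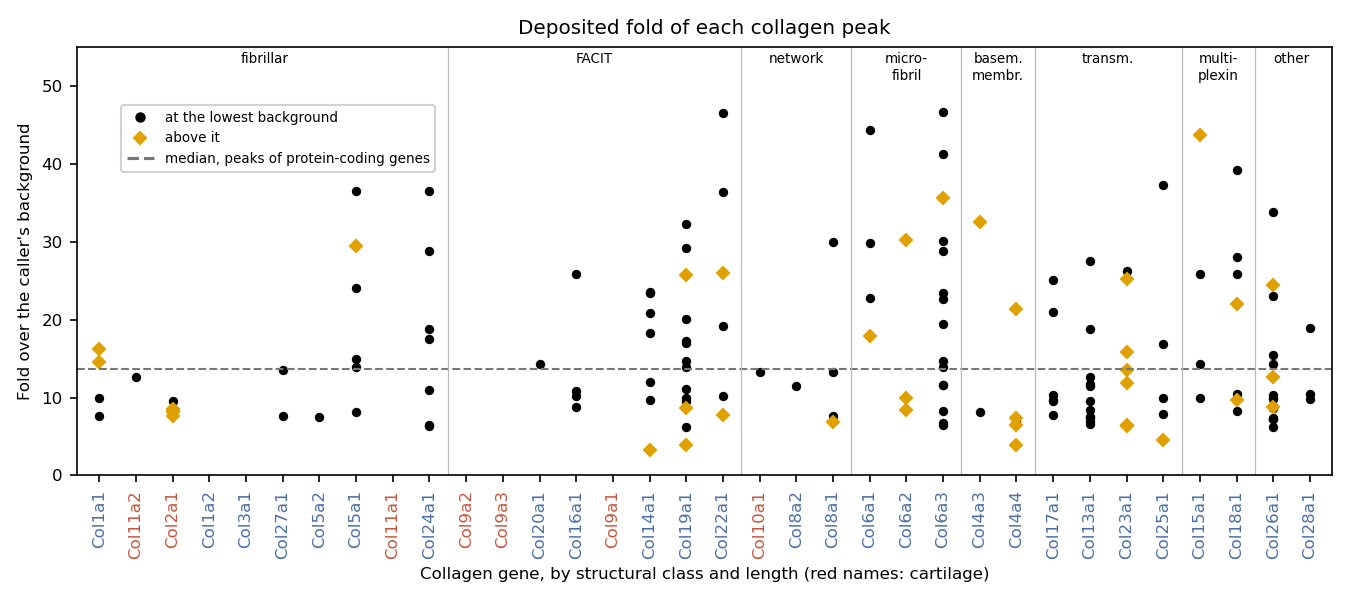
Deposited fold of each of the 153 collagen peaks over the caller's background, by gene in the order of structural class and length; black points are peaks at the lowest background, yellow diamonds those above it, and the dashed line is the median of 13.7 for peaks of protein-coding genes. Peaks of the cartilage collagens (red names) stay between 7.60 and 13.3, and those of Col6a3 reach 46.7.

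The genes that modify, process, cross-link, bind and degrade collagen had more peaks per 100 kb than the collagens. The 2 covered genes of its transcriptional regulators had fewer. These densities are not adjusted for length, and density differs between genes of different length. Of 51 listed genes 32 were on covered sequence, and 30 of them (93.75%) had a peak, against 66.4% of all protein-coding genes, shares not adjusted for length. The 32 genes held 173 peaks, or 7.59 per 100 kb, where similarly long genes summed to 133. Their median density was 9.27 per 100 kb. The 11 hydroxylase and chaperone genes held 50 against a sum of 38.3. The 10 processing and cross-linking genes held 73 against 47.5. Of these, 10 were in Bmp1, a procollagen protease, and 14 in Adamts2, which trims the amino-terminal propeptide. Pcolce, which enhances the Bmp1 protease, had 0. The 5 receptors held 28 against 26.0, and the 4 degradation genes 16 against 8.47. Of 4 listed transcriptional regulator genes only 2 were on covered sequence. These 2 went the other way, with 6 against 12.7, or 1.83 per 100 kb. All 6 peaks and 12.0 of the 12.7 belong to Runx2. In 0 of the 22 with an annotated start was a peak within 1 kb of it, against 7.81% of protein-coding genes with such an entry. At that share only a few of 22 genes would have one. Fkbp10, encoding a chaperone of the collagen helix and without a start entry, had a peak within 1 kb of an end, as did Plod3, Sec24d and Ddr1, 4 of 32 against 21.8% of protein-coding genes. Plod3, a lysyl hydroxylase gene, had 7 peaks in 9.63 kb, and Ddr1, a collagen receptor gene, had 9 in 23.2 kb. Of the 2 transcriptional regulators, Sox9, which drives Col2a1 in chondrocytes, had no peak in 5.55 kb, a length at which only 47.1% of genes had any. Runx2, a regulator of hypertrophy, had 6 in 318.8 kb, where the median of similarly long genes was 8. All pathway genes named here other than Fkbp10 were singled out after their values were seen.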

How the data were processed

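MBD-seq was done on 6 primary chondrocyte cultures, 3 control and 3 cKO; the deposited data analysed are 1 peak list, called on 3 merged datasets per the peak names in the file. Per the submitters' processing notes fastp, Bowtie2 and MACS2 were used with mm10 (GRCm38); settings are not given in the sources used here. The column headers of the file do not name these values; they follow the caller's column order. The deposited fold enrichment (a ratio) sets each peak's reads against the caller's expected number, the deposited −log10 p and −log10 q are each peak's significance, and the deposited score is 10 times the −log10 q. An incomplete last line was left out; chromosomes 1 to 5 and 10 to 19 and chromosome 6 up to 88818859 were covered, from 3 Mb on. The depth of each culture is unknown, and the planned test of control against cKO could not be made on a list without values per culture.

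Genes and promoters came from RefSeq tables of GRCm38.p6, coordinates are 1-based, and all 34 members matched by symbol. Exons, introns and the sequence under peaks were not analysed here. Peaks were placed by midpoint and divided by gene length plus 1 kb at each end. Pileup and background were solved from fold = (pileup + 1)/(background + 1) and the Poisson p, a whole pileup being accepted within 1% of the spacing of p. This matched 99.97% of the peaks and every collagen peak. Python 3.11.15, numpy 2.4.6, pandas 2.3.3 and scipy 1.17.1 were used, and counting and recovery were tested on simulated data. No test was run between genes: values are descriptions set beside all protein-coding genes and those within 25% of a member's length. Members and lists were chosen with earlier results of these data known. The rule for values in full named the cartilage collagens, members with a peak at an end, and the 3 densest and 3 sparsest members; the fold of each of their peaks is given, except for Col6a3, whose 15 are given by range, and 6 members tied as the sparsest. Widths and −log10 q are given for some of them. Alternatives were placement by summit or overlap, windows of 0, 500 bp and 2 kb, −log10 q of at least 50 or 100, the median fold, merging within 500 bp, the lowest background, other length classes and leaving out single genes.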

Additional observations from a re-analysis of the deposited data

How the results depend on the processing

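No paired analysis was possible because peaks were called on merged reads, so no culture has a value of its own to pair or to leave out. Placement by summit or by overlap, the 3 other windows and merging left the same 6 collagen genes without a peak. Merging within 500 bp took Col2a1 from 5 peaks to 3. The cartilage members then had 5 peaks, or 1.305 per 100 kb, against 3.65 per 100 kb for the other collagens. A value was taken as stable when it stayed within 1.5 times (numbers and densities) or within its 95% interval (shares and medians); 79 of 98 alternatives met this. A −log10 q of at least 100 gave 61.8% of genes with a peak, against 51.15% of all protein-coding genes. It gave 1.74 peaks per 100 kb (cartilage 0, others 1.92, median 1.40) and 2 genes with an end peak. Peaks at or above the median fold gave 1.74 (cartilage 0.261, others 1.89, median 1.38) and 2 end genes. These fall by construction, as peaks are removed. The lowest background alone gave 0.783 for cartilage and 2 end genes. End genes numbered 7 by overlap, 2 within 500 bp and 11 within 2 kb. The share of all protein-coding genes with an end peak is not given for these settings, so the comparison with 21.8% holds for midpoints within 1 kb only. The depth of the merged reads is unknown, so how many weaker methylated regions lie below the list's limit was not tested. The median fold was 17.2 at a −log10 q of at least 50. The cartilage density was 0.568 without Col2a1 and 3.66 without Col11a1; leaving out any other gene kept it between 1.60 and 2.29, and the other collagens between 3.52 and 4.17.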
